A study of Mus musculus with 9 samples.

Results

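Cumulus cells, the granulosa cells attached to the oocyte, make several ligands and binding proteins of the transforming growth factor beta (TGF-beta) superfamily, and 10 genes of this kind were read on every array: the inhibin and activin subunits Inha, Inhba and Inhbb, the activin-binding proteins Fst and Fstl3, anti-Müllerian hormone Amh and its receptor Amhr2, the ligands Bmp2 and Tgfb2, and the BMP antagonist Grem1. They were chosen by gene name, and all 18 probe sets annotated to them, of 45101 on the array, were used on all 9 arrays. Wildtype females, females without the oocyte growth factor BMP15 (Bmp15-/-) and Bmp15-/- females with 1 intact copy of the related oocyte factor gene Gdf9 (Bmp15-/-Gdf9+/-, labelled DM) gave 3 arrays each. All were adults of 4 to 5 months on a mixed B6/129 background, and all had received 5 IU of equine chorionic gonadotropin 48 hours earlier to stimulate follicle growth. Each array held RNA from the cumulus cells of 75 to 100 complexes pooled from 3 to 4 mice, stripped from oocytes in medium with the phosphodiesterase inhibitor milrinone. No group lacked a Gdf9 copy while keeping BMP15, so DM differs from wildtype at both genes and from Bmp15-/- at Gdf9.

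Inhibins and activins are dimers that share their beta subunits. An alpha subunit (Inha) joined to a beta subunit (Inhba or Inhbb) is an inhibin, which lowers pituitary secretion of follicle-stimulating hormone, and a pair of beta subunits is an activin, which signals through SMAD2 and SMAD3. Follistatin and its relative FSTL3 bind activins outside the cell, gremlin binds BMPs, and AMH restrains follicle recruitment and growth through AMHR2 and SMAD1, SMAD5 and SMAD8.

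The clearest differences lay in DM. Bmp2 was 8.10-fold higher than in wildtype and Amhr2 1.65-fold higher, while Grem1 was 2.77-fold lower, Inhba 1.85-fold lower and Inhbb 1.68-fold lower on the brightest probe set of each gene. The wildtype values of Bmp2 lay at the dim end of the array, so its fold is approximate, and a dimmer probe set of Inhbb fell 4.31-fold. A gene is called where the Benjamini-Hochberg adjusted p of limma over all 13447 genes tested was under 0.05. By that rule 5 of the 10 genes were called in DM against wildtype, 2 higher and 3 lower, where 28.1% of all genes were called, 9.95% higher and 18.2% lower. Without wildtype array 1 the count was 3, since Inhba and Grem1 were no longer called, where 2630 of all 13383 genes tested were called. The call of Amhr2 rests on probe sets that may cross-hybridise with other transcripts, and its remaining probe set did not pass. In Bmp15-/- against wildtype, limma called 0 of the 10, where 9.07% of all genes were called (3.29% higher, 5.78% lower). There 1 of the 10 (Bmp2) had an unadjusted p under 0.05, and the share of all genes at that looser threshold was not counted. DM against Bmp15-/- had 1 called gene, Bmp2, against 3.25% of all genes (1.64% higher, 1.61% lower). Both mutants are set against the same wildtype arrays, and both comparisons with Bmp15-/- share its arrays. The RNA came from whole cell pellets, so fewer cells making a transcript and less of it per cell cannot be told apart.

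**Figure D1:**
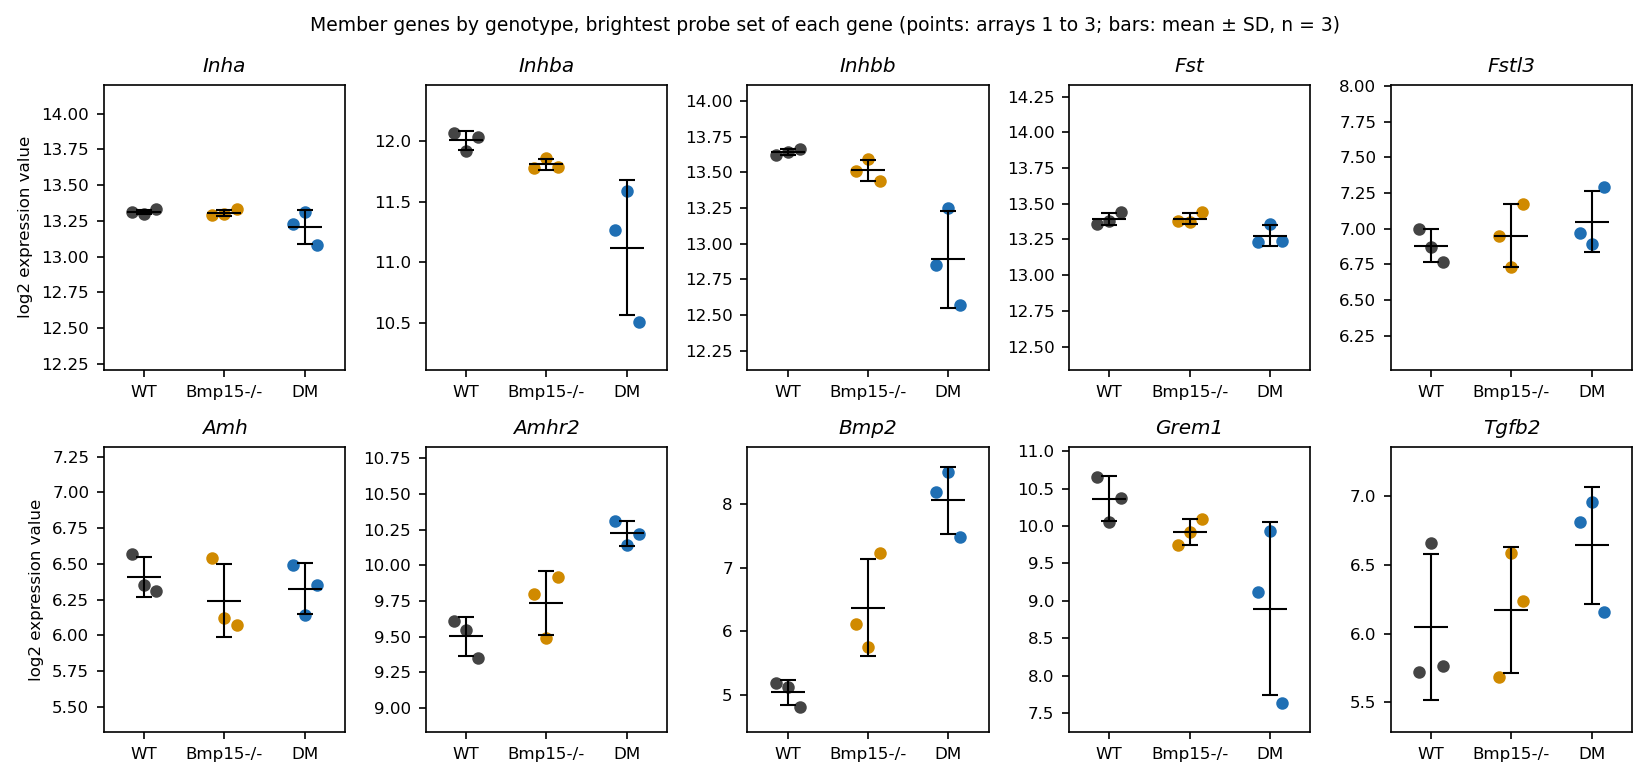
Log2 expression value (vertical axes, with a range of their own in each panel) of the brightest probe set of each of the 10 genes in wildtype (WT), Bmp15-/- and DM. Points are arrays 1 to 3 from left to right, and bars give the mean ± SD (n = 3); Bmp2 rises from 5.04 in wildtype to 8.06 in DM, while Inha stays between 13.08 and 13.33 on all 9 arrays.

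The values are log2 expression values per probe set, so a difference of 1 is a doubling. A probe set stands above the dim part of an array where it exceeds the 40th percentile of that array, which lay between 4.97 and 5.05. Levels of different probe sets are not compared with each other, because each has its own probes. All 18 probe sets, and so all 10 genes, exceeded that level on at least 3 arrays and were tested.

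Promoter sequence was at hand for 7 of the 10 genes, from RefSeq (GRCm38.p6). Those of Amhr2, Inhbb and Grem1 are shown: the first and last hold a match to a motif searched, and Inhbb had the fall called under every alternative; the 250 bases before the annotated start are given on the strand of the gene. Searched on both strands were CAAGGTCA, a site of the granulosa nuclear receptor SF-1 (NR5A1), GGCGCC, a GC-rich element bound by SMAD1 and SMAD5, the SMAD palindrome GTCTAGAC and the full cyclic AMP response element TGACGTCA. Capitals mark the matches. The Amhr2 window is chr15:102445117-102445366 (plus strand), that of Inhbb chr1:119422249-119422498 (minus strand) and that of Grem1 chr2:113758649-113758898 (minus strand).
Amhr2: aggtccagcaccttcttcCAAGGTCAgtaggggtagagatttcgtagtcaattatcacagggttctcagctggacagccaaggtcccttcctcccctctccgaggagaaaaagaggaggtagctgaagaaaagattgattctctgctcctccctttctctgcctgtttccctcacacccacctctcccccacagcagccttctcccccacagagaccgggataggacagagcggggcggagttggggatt
Inhbb: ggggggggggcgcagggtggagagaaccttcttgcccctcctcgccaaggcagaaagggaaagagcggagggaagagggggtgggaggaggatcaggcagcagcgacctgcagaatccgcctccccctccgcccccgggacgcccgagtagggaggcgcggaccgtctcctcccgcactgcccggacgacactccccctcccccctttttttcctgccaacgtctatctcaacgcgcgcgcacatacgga
Grem1: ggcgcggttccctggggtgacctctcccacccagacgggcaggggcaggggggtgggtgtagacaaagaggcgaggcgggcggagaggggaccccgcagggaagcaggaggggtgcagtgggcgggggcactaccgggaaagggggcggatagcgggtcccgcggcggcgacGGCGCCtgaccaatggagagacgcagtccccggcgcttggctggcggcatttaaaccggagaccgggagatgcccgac

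Amhr2 held CAAGGTCA once, beginning 232 bases before the start, a motif present in 1.33% of 32851 promoter windows of that length. Grem1 held GGCGCC once, beginning 78 bases before the start, a motif present in 9.59% of windows. The palindrome (0.167% of windows) and the full cyclic AMP element (1.55%) were found in none of the 7 windows, and Inha, Inhba, Inhbb, Fstl3 and Tgfb2 held none of the 4 motifs. The windows of Inha, Inhba, Tgfb2 and Amhr2 lie inside the annotated gene span, before a start downstream of the outermost one, so their matches and lack of matches concern those starts only. Those of Inhbb, Grem1 and Fstl3 end where the gene begins. A match describes the letters only and does not show that a factor binds there.

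Inha, the alpha subunit that makes a dimer an inhibin, lies at chr1:75507077-75510366. It read 13.31, 13.30 and 13.33 (wildtype), 13.29, 13.30 and 13.33 (Bmp15-/-) and 13.23, 13.31 and 13.08 (DM); values are always given in the order of arrays 1 to 3. The groups overlapped, and the lowest value was that of DM array 3. The difference from wildtype was -0.01 in Bmp15-/- (95% interval -0.19 to 0.18, adjusted p = 0.978) and -0.11 in DM (-0.29 to 0.08, adjusted p = 0.372). Inha has 1 probe set, and with a mean of 13.28 it stood at the 99.5th percentile of all probe sets.

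Inhba, the beta-A subunit of activin A and inhibin A (chr13:16004256-16031609), read 12.07, 11.92 and 12.04 (wildtype), 11.78, 11.86 and 11.79 (Bmp15-/-) and 11.27, 11.59 and 10.51 (DM). Every DM array lay below every array of the other genotypes, and DM array 3 lay well below the other DM arrays. In DM the fall was 0.89 ± 0.22 log2 units (SE, adjusted p = 0.0158), which became -0.86 (adjusted p = 0.0525) without wildtype array 1 and -0.58 (adjusted p = 0.00771) without DM array 3; over the alternatives the adjusted p ran from 0.00297 to 0.0596. Against Bmp15-/- the difference in DM was -0.69 (adjusted p = 0.124), and that of Bmp15-/- from wildtype was -0.20 (-0.69 to 0.30, adjusted p = 0.611). A second, dim probe set of Inhba ran from 5.21 to 5.81 over the 9 arrays, with a difference of -0.24 in DM (adjusted p = 0.254).

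Inhbb encodes the beta-B subunit of activin B and inhibin B (chr1:119415463-119422248) and has 2 probe sets. The bright one (1426858_at) read 13.62, 13.64 and 13.66 (wildtype), 13.51, 13.59 and 13.44 (Bmp15-/-) and 12.85, 13.25 and 12.57 (DM). The dimmer one (1426859_at) read 8.68, 8.56 and 8.59 (wildtype), 7.88, 7.88 and 7.69 (Bmp15-/-) and 6.25, 7.19 and 6.06 (DM). On both, the 3 genotypes did not overlap and stood in the order wildtype, Bmp15-/-, DM. The bright probe set fell by 0.75 ± 0.15 in DM (SE, adjusted p = 0.00574).

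The dimmer probe set of Inhbb fell by 2.11 ± 0.25 in DM, a 4.31-fold change (adjusted p = 0.000712 over 27991 probe sets tested), and by 1.32 ± 0.25 from Bmp15-/- to DM (adjusted p = 0.0354). Its difference in Bmp15-/- was -0.79 (-1.35 to -0.23) and did not pass (adjusted p = 0.0929); with the same difference it passed without DM array 2 (adjusted p = 0.00498), with array weights (0.0184) and in the fit of those 2 groups alone (0.00628). The call in DM against Bmp15-/- was lost without any of the other 8 arrays in turn (adjusted p = 0.0650 to 0.125). Inhbb is thus called in DM against wildtype by both probe sets, which differ in the size of the fall.

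Amh (chr10:80805240-80807679), the ligand of AMHR2, read 6.57, 6.35 and 6.31 (wildtype), 6.54, 6.12 and 6.07 (Bmp15-/-) and 6.49, 6.14 and 6.35 (DM). Genotypes overlapped throughout. The differences were -0.17 (-0.50 to 0.16, adjusted p = 0.497) in Bmp15-/- and -0.09 (-0.41 to 0.24, adjusted p = 0.702) in DM. A fall of more than 0.50 log2 units in the signal of its only probe set lies outside both 95% intervals. That probe set had a mean of 6.33, at the 60.9th percentile of all probe sets, and the intervals concern its signal and not the amount of transcript.

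Bmp2, a ligand of the BMPR1A and BMPR1B receptors that signals through SMAD1 and SMAD5, lies at chr2:133552159-133562896. Its values were 5.18, 5.13 and 4.81 (wildtype), 6.12, 5.76 and 7.23 (Bmp15-/-) and 8.19, 8.50 and 7.48 (DM). The 3 genotypes did not overlap, and the Bmp15-/- arrays were the most scattered, with array 3 close to DM array 3. Wildtype array 3 lay under its 40th percentile of 4.99 and the other wildtype arrays just above theirs, so the size of the rise rests on dim wildtype values.

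In DM, Bmp2 rose by 3.02 ± 0.36 log2 units (SE, adjusted p = 0.000493). Under all 21 alternatives it stayed called, with a rise of 2.80 to 3.31. From Bmp15-/- to DM it rose by 1.69 ± 0.36 (3.22-fold, adjusted p = 0.0413); this call was lost in 10 of the 21 alternatives, 7 of them the removal of a single array (any wildtype array, Bmp15-/- array 1 or 2, or DM array 1 or 2, adjusted p = 0.0638 to 0.132). In Bmp15-/- the difference from wildtype was 1.33 ± 0.36 (2.52-fold) and just missed the threshold (adjusted p = 0.0513), passing in 9 of the 21 alternatives. Without Bmp15-/- array 3 it was 0.90 (adjusted p = 0.120), and over the alternatives the adjusted p ran from 0.0228 to 0.146.

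Tgfb2 encodes the ligand TGF-beta 2, which signals through SMAD2 and SMAD3, and has 4 probe sets that did not move alike (chr1:186622787-186709697). The brightest (1450922_a_at) read 5.72, 6.66 and 5.76 (wildtype), 5.68, 6.59 and 6.24 (Bmp15-/-) and 6.81, 6.96 and 6.16 (DM), so the genotypes overlapped, and it was not called in DM at a difference of 0.60 (-0.11 to 1.31, adjusted p = 0.190). It was highest on array 2 of every genotype. The median of 13 tested oocyte markers was 6.69 on wildtype array 2 against 5.80 and 5.99 on wildtype arrays 1 and 3, and 6.54 on Bmp15-/- array 2 against 5.57 and 5.52 on Bmp15-/- arrays 1 and 3, but in DM it was highest on array 3 (6.18 against 5.40 and 5.99). The part of oocyte RNA in this probe set was not tested.

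Probe set 1450923_at of Tgfb2 read 4.94, 5.01 and 5.16 (wildtype), 5.15, 5.81 and 6.11 (Bmp15-/-) and 7.19, 6.77 and 6.43 (DM). Every DM array lay above all others, and 2 of the 3 wildtype arrays lay under the 40th percentile. It rose by 1.76 ± 0.25 in DM (SE, 3.38-fold, adjusted p = 0.00171 over all probe sets) and differed by 0.65 in Bmp15-/- (0.08 to 1.22, adjusted p = 0.154). Probe set 1438303_at rose by 0.74 ± 0.15 in DM (adjusted p = 0.00701), from 5.70 ± 0.15 to 6.44 ± 0.23 (SD, n = 3). The fourth ran from 5.09 to 5.49 on all arrays, with a difference of -0.11 in DM (adjusted p = 0.501). For Tgfb2 the call therefore depends on the probe set, with 2 of 4 called higher in DM.

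Amhr2, the type II receptor for AMH (chr15:102445002-102454640), has 3 probe sets. The brightest (1438967_x_at) read 9.61, 9.55 and 9.35 (wildtype), 9.80, 9.49 and 9.92 (Bmp15-/-) and 10.31, 10.14 and 10.22 (DM). Wildtype and Bmp15-/- overlapped, and all DM arrays lay above both. The rise in DM was 0.72 ± 0.12 (SE, adjusted p = 0.00279), and that gene-level call held in all 21 alternatives at 0.52 to 0.81. From Bmp15-/- to DM the difference was 0.49 ± 0.12 (adjusted p = 0.0650), and in Bmp15-/- it was 0.23 (-0.04 to 0.51, adjusted p = 0.262).

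A second Amhr2 probe set (1457021_x_at) rose by 0.59 ± 0.15 in DM (adjusted p = 0.0237), and was not called without DM array 1 or without wildtype array 2 or 3 (adjusted p = 0.0678 to 0.0807). Both have names ending in x_at, which Affymetrix gives to probe sets with probes that also match other transcripts. The third (1427989_at), without that mark, read 8.59, 8.73 and 8.39 in wildtype and 8.75, 8.72 and 9.02 in DM, which overlap, and its difference of 0.26 (-0.03 to 0.56) did not pass (adjusted p = 0.179). The rise of Amhr2 was thus called on the 2 probe sets that may cross-hybridise and not on the other.

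Fst encodes follistatin, which binds activins (chr13:114452262-114458989). Its bright probe set (1434458_at) read 13.36, 13.38 and 13.44 (wildtype), 13.38, 13.37 and 13.44 (Bmp15-/-) and 13.23, 13.36 and 13.24 (DM); the DM difference of -0.12 (-0.29 to 0.06) did not pass (adjusted p = 0.289). The other (1421365_at) read 10.70, 10.57 and 10.56 (wildtype), 10.44, 10.60 and 10.34 (Bmp15-/-) and 9.78, 10.13 and 9.51 (DM). All DM arrays lay below all others there, and it fell by 0.80 ± 0.15 in DM (SE, 1.74-fold, adjusted p = 0.00565). In Bmp15-/- the differences were 0.00 and -0.15 on the bright and the other probe set (adjusted p = 0.982 among genes and 0.581 among probe sets).

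Inhbb and Fst each had a probe set above 13, where 0.763% of all probe sets lay, and in each the dimmer probe set moved more. Leaving the 10 genes out, 66 other genes had a brightest probe set above 13 and another between 7 and 11. Their median absolute change in DM was 0.12 on the brightest and 0.37 on the other, which was the larger in 57 of 66 genes (86.4%). Where the brightest lay between 10 and 12 and another between 7 and 9, the medians were 0.24 and 0.34, and the other was larger in 62.2% of 722 genes. These limits were set after the values were seen, and the part of signal range in the small differences of Inha, Inhbb and Fst on bright probe sets was not tested.

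**Figure D2:**
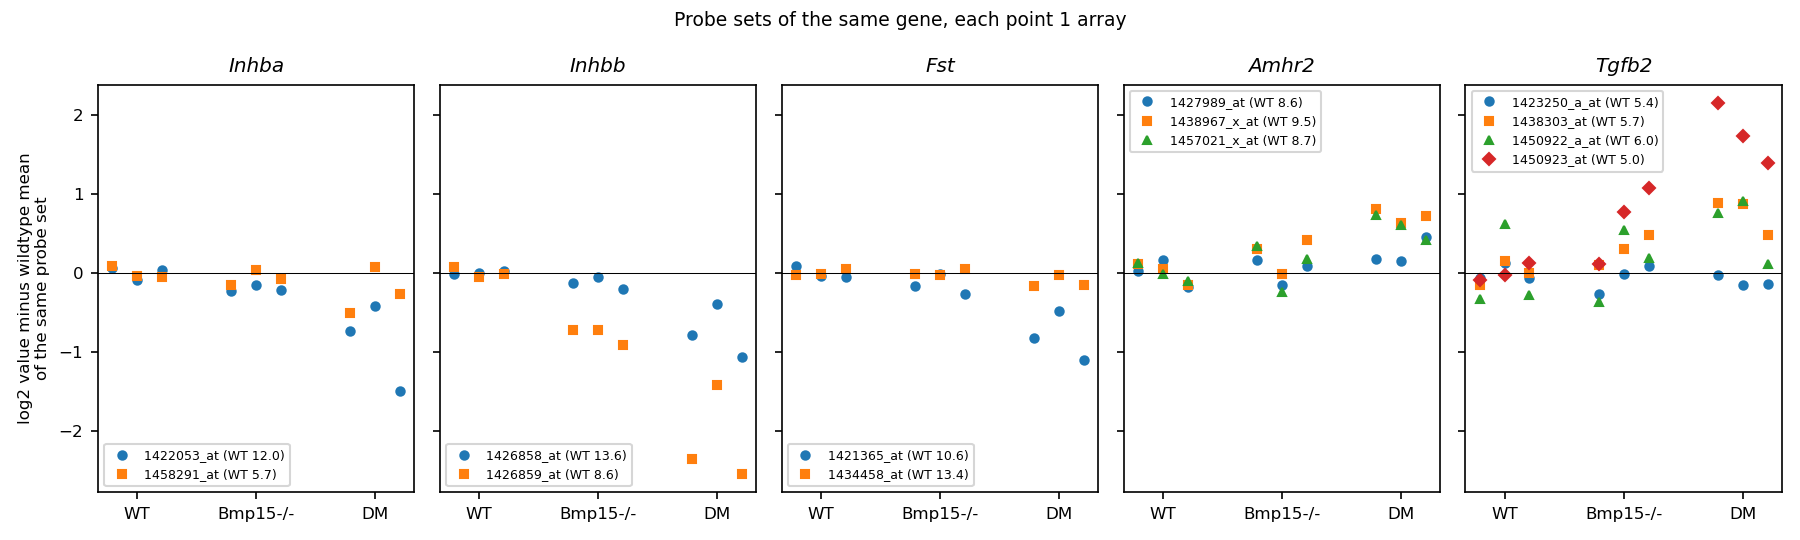
Log2 value minus the wildtype mean of the same probe set (vertical axis) for the 5 genes with several probe sets; each point is 1 array, grouped by genotype, and each symbol is a probe set with its wildtype mean in the key. In DM the dimmer Inhbb probe set falls by 2.11 and the bright one by 0.75, and of the 4 Tgfb2 probe sets 1450923_at rises most.

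Fstl3, a relative of follistatin that also binds activins (chr10:79777274-79782630), read 7.00, 6.87 and 6.77 (wildtype), 6.95, 6.73 and 7.17 (Bmp15-/-) and 6.97, 6.89 and 7.29 (DM). The genotypes overlapped. Its differences were 0.07 (-0.25 to 0.38, adjusted p = 0.798) in Bmp15-/- and 0.17 (-0.15 to 0.48, adjusted p = 0.406) in DM.

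Grem1 encodes gremlin, which sequesters BMP2, BMP4 and BMP7 and is known in cumulus cells as a transcript raised by GDF9 (chr2:113748675-113758648). It read 10.66, 10.06 and 10.38 (wildtype), 9.74, 9.92 and 10.09 (Bmp15-/-) and 9.12, 9.93 and 7.64 (DM). DM lay below wildtype without overlap but overlapped Bmp15-/-, and its SD of 1.16 in DM was the widest of the 10 genes. In DM it fell by 1.47 ± 0.46 (SE, adjusted p = 0.0394), by 0.84 without DM array 3 (adjusted p = 0.0414) and by 1.99 without DM array 2 (adjusted p = 0.00468). The call was lost in 10 of the 21 alternatives, among them the removal of any wildtype array (adjusted p = 0.0661 to 0.119), any Bmp15-/- array (0.0540 to 0.0554) or DM array 1 (0.0703), the 2 arrays rich in oocyte transcripts (0.0937), the replicate block (0.0509) and the fit of the 2 groups alone (0.0795). In Bmp15-/- the difference was -0.45 (-1.48 to 0.58, adjusted p = 0.574), and from Bmp15-/- to DM it was -1.02 (adjusted p = 0.257).

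**Figure D3:**
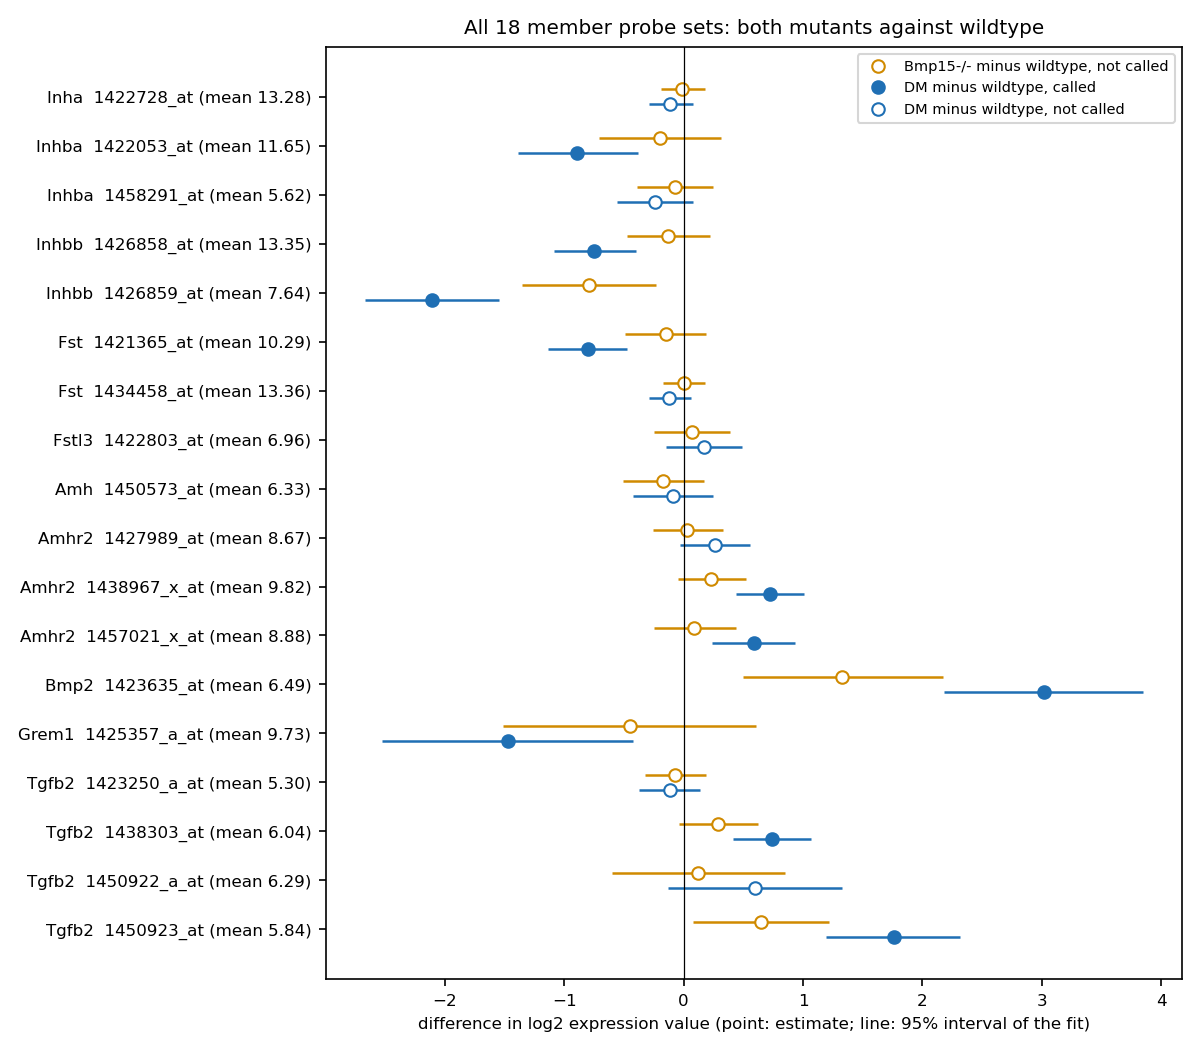
Difference in log2 value from wildtype (horizontal axis) for all 18 probe sets in Bmp15-/- and DM, with the 95% interval of the fit; filled points passed an adjusted p under 0.05 over all probe sets tested. In DM 10 of 18 were called, 5 higher and 5 lower, and in Bmp15-/- none of the 18.

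Counted by probe set, 10 of 18 were called in DM against wildtype, 5 higher and 5 lower, where 24.2% of all probe sets were called, 8.09% higher and 16.2% lower. In Bmp15-/- against wildtype limma called 0 of 18, where 6.33% of all were called (2.05% higher, 4.28% lower). Of the 18, 3 had an unadjusted p under 0.05 there (Bmp2, the dimmer Inhbb and Tgfb2 1450923_at), and the share of all probe sets at that threshold was not counted. With array weights 2 of the 18 were called there. DM against Bmp15-/- had 1 of 18, the dimmer Inhbb, against 1.93% of all probe sets (1.01% higher, 0.922% lower). Probe sets of the same gene measure the same RNA and are not independent.

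By gene, groups did not overlap in 6 of 10 genes in DM against wildtype, 2 lying above and 4 below, where that held for 43.3% of all genes tested, 15.9% above and 27.4% below. Of the 4, Fst was separated only beyond the digits given, with wildtype array 1 and DM array 2 both at 13.36. Its difference was -0.12 (limma adjusted p = 0.289). In Bmp15-/- against wildtype it held in 3 of 10, 1 above and 2 below (36.8% of all genes, 13.4% above and 23.4% below). In DM against Bmp15-/- it held in 5 of 10, 2 above and 3 below (21.4% of all genes, 8.95% above and 12.5% below). The median absolute difference of the 10 genes was 0.66 in DM against wildtype, against 0.22 over all genes tested, and 0.15 against 0.16 in Bmp15-/-. The signed median in DM was -0.10, against -0.06 over all genes, with falls and rises mixed. Of the 5 called genes, Inhba, Inhbb, Amhr2 and Grem1 lay nearest wildtype on DM array 2, while Bmp2 lay nearest on DM array 3. Over all genes tested DM array 2 was likewise the nearest to wildtype, with a root mean square distance of 0.47 log2 units from the wildtype mean against 0.55 and 0.58 on DM arrays 1 and 3.

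Genes whose 9 values, each set against the wildtype mean of its gene, lay closest to those of a called gene were sought among 13437 others by the root mean square difference. For Bmp2 they were the muscle regulatory factor Myf5 (0.37 log2 units), Itih5 (0.43) and the orphan nuclear receptor Nr0b1 (0.45), against a root mean square of 1.96 for Bmp2 itself. Nearest to Inhbb were the kinetochore motor Cenpe (0.05), Arhgap19 (0.06) and the amino acid transporter Slc38a5 (0.08), and to Inhba Lzts1 (0.09), Igsf3 (0.11) and the estrogenic dehydrogenase Hsd17b1 (0.11). Amhr2 was followed most closely by the actin cross-linker Flna (0.07), Mboat2 (0.09) and the adenylyl cyclase Adcy6 (0.10), and Grem1 by Mfap3l (0.23), Pag1 (0.32) and the replication protein subunit Rpa3 (0.32). Closeness here is a description of 9 arrays.

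The other genes of the pathway were read from fixed lists, where 28.1% of all genes tested were called in DM and 9.07% in Bmp15-/- against wildtype. Of 24 further ligands of the superfamily, 18 were on the array and 7 of these were tested, the others being set aside as dim. Limma called 0 of the 7 in either mutant, and in DM their differences ran from -0.31 (Bmp6) to 0.40 (Gdf11). Among 14 tested receptors and co-receptors, 2 rose and 4 fell in DM, and 1 rose and 2 fell in Bmp15-/-. Tgfbr3 (betaglycan), the co-receptor that binds inhibin and TGF-beta 2, rose by 0.89 ± 0.12 in DM (SE, adjusted p = 0.000998) and by 0.51 ± 0.12 in Bmp15-/- (adjusted p = 0.0373), although a second Tgfbr3 probe set had a difference of 0.17 in DM (adjusted p = 0.534).

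Acvr1b, the type I activin receptor, fell by 0.72 ± 0.11 in DM and by 0.63 ± 0.11 in Bmp15-/- (adjusted p = 0.00192 and 0.0125), with another Acvr1b probe set at -0.02 in DM (adjusted p = 0.853). The decoy receptor Bambi fell by 0.80 in DM and the BMP receptor Bmpr1a by 0.37 (adjusted p = 0.00238 and 0.0340), where the other 3 Bmpr1a probe sets were not called (-0.37 to -0.09, adjusted p = 0.0733 to 0.521), and Tgfbr2, the TGF-beta type II receptor, rose by 0.81 (adjusted p = 0.00418) with a second probe set at 0.01. Type II activin receptors Acvr2a and Acvr2b had differences of 0.03 and 0.19 in DM (adjusted p = 0.841 and 0.200); these, and Acvr1, which fell by 0.65 in DM (adjusted p = 0.0346), were picked once their values were known. Of 7 tested SMAD genes, the inhibitory Smad7 fell in both mutants, by 1.04 ± 0.18 in DM and 1.13 ± 0.18 in Bmp15-/- (adjusted p = 0.00310 and 0.00735), and Smad2, which carries activin signals, fell by 0.52 in DM (adjusted p = 0.00566). Second probe sets of Smad7 and Smad2 differed by -0.32 and -0.14 in DM and did not pass (adjusted p = 0.166 and 0.550). Smad5, which carries BMP and AMH signals, differed by 0.05 in DM on its brightest probe set (adjusted p = 0.838), while a dimmer one fell by 0.98 in DM and 0.82 in Bmp15-/- (adjusted p = 0.00317 and 0.0212); it was picked once its values were known. None of the receptors and SMAD genes was called in DM against Bmp15-/-, by limma.

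Of 15 tested extracellular binders and processing enzymes, 1 rose and 4 fell in DM and limma called 0 in Bmp15-/-. Furin, a convertase that cleaves TGF-beta family precursors, rose by 0.34, while its relative Pcsk5 fell by 0.83, the BMP binder Chrdl2 by 0.57, the latency protein Ltbp1 by 0.38 and the BMP modulator Twsg1 by 0.33 (adjusted p = 0.0137, 0.0239, 0.00963, 0.0223 and 0.00978). Among 10 tested genes known to respond to activin or TGF-beta, Ccn2 rose by 1.87 ± 0.17 in DM and 1.39 ± 0.17 in Bmp15-/- (adjusted p = 0.000129 and 0.00276). Pmepa1, a feedback inhibitor of SMAD2 and SMAD3, fell by 1.09 and the corepressor Ski by 0.42 in DM (adjusted p = 0.00651 and 0.0307), and neither passed in Bmp15-/-; the other 2 probe sets of Pmepa1 differed by -0.28 and -0.03 in DM and did not pass, nor did a second one of Ski at -0.22 (adjusted p = 0.355). These genes did not move the same way.

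Among 13 tested granulosa transcription factors, 3 rose and 4 fell in DM, and 1 rose and 2 fell in Bmp15-/-. Nr5a1, which encodes SF-1, a known activator of Inha and Amh, fell by 0.85 ± 0.16 in DM (adjusted p = 0.00434), although a second probe set differed by -0.12 (adjusted p = 0.414). Its cofactor Gata4 fell by 0.96 ± 0.10 in DM and 0.78 ± 0.10 in Bmp15-/- (adjusted p = 0.000280 and 0.00358), and Runx1 by 0.95 and 1.13 (adjusted p = 0.00221 and 0.00391). Wt1, a factor known to act on the Amhr2 promoter, rose by 2.29 ± 0.28 in DM (adjusted p = 0.000539), and Nr0b1, which represses SF-1, by 2.49 ± 0.25 (adjusted p = 0.000197). The relation of these factors to Inha, Amh and Amhr2 in these samples was not tested.

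**Figure D4:**
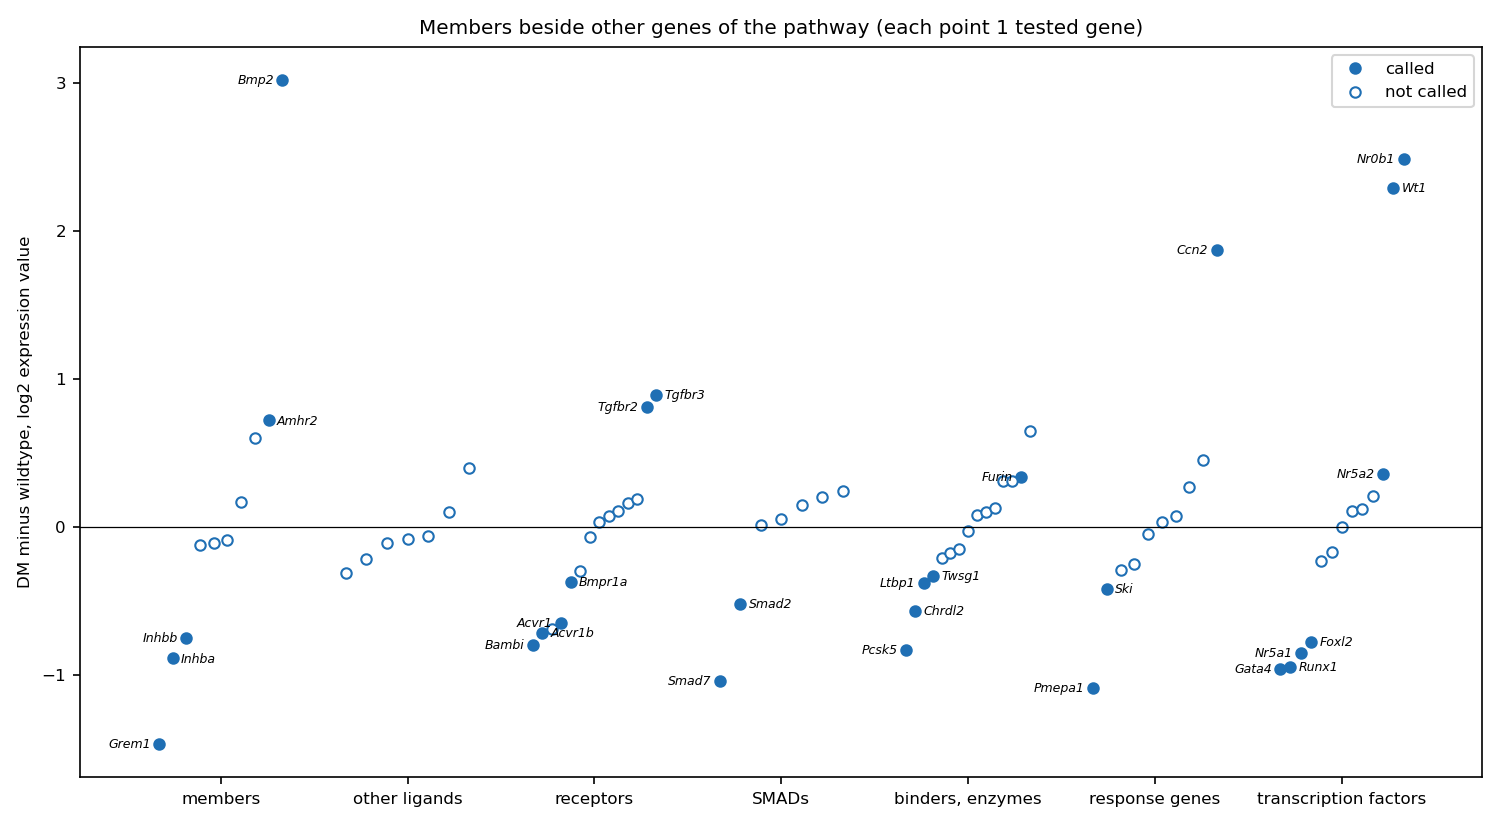
Difference in log2 value between DM and wildtype (vertical axis) for the 10 genes and 6 lists of other pathway genes, with 1 point per tested gene and filled points for those called. Bmp2 has the largest rise shown and Grem1 the largest fall, and limma called none of the 7 other ligands, where 28.1% of all genes were called.

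Some markers of other cells and 1 of 2 measures of RNA quality differed by genotype beside these results. The calls below stand beside 28.1% of all genes called in DM and 9.07% in Bmp15-/- against wildtype. From a list of 11 genes of theca and stroma 6 were tested, of which Acta2, Pdgfra and Col1a1 rose and Pdgfrb fell in DM. In Bmp15-/- Pdgfra rose and Pdgfrb fell. Second probe sets of Acta2 and Col1a1 differed by 0.21 and -0.15 in DM and did not pass (adjusted p = 0.200 and 0.497). A probe set of Pdgfrb fell by 2.41 in Bmp15-/- and 2.19 in DM (adjusted p = 0.00156 and 0.000562), and another differed by -0.43 and -0.37 (adjusted p = 0.0597 and 0.0450). The median level of the 6 was 5.38 to 5.72 on wildtype, 5.78 to 6.09 on Bmp15-/- and 6.41 to 6.58 on DM arrays. Of the 6, Col3a1 and Tagln differed by 0.05 and 0.18 in DM and did not pass. Dcn, Lum and Col1a2, also on the list, exceeded the 40th percentile on 0 of 9 arrays. Cyp17a1, which defines theca cells, ran from 4.50 to 4.85 on DM arrays, under the 40th percentile on each. It exceeded that level only on wildtype array 3 (5.49). Oocyte marker medians overlapped between genotypes, at 5.80 to 6.69 (wildtype), 5.52 to 6.54 (Bmp15-/-) and 5.40 to 6.18 (DM). Of the 13 oocyte markers tested, limma called 1 lower in each mutant, Tle6, which fell by 0.98 in DM and 0.65 in Bmp15-/-. The granulosa markers Foxl2 and Fshr read at least 9.51 on every array. Foxl2 itself fell by 0.78 in DM (adjusted p = 0.00947). Of 9 tested cumulus markers, Slc38a3 and Nr5a2 rose by 1.24 and 0.36 in DM, and Has2 and Npr2 fell by 1.24 and 0.46 beside Foxl2. A second probe set of Slc38a3 differed by -0.00 in DM and the other probe sets of Nr5a2 by 0.07 to 0.14, and these did not pass (adjusted p = 0.558 to 0.984). A second probe set of Has2 also fell, by 1.00 (adjusted p = 0.0243). In Bmp15-/- limma called 1 of the 9 cumulus markers, Npr2, which fell by 0.49. The median of the 9, which include Inha and Amh, was 10.40 to 10.55 on wildtype, 9.63 to 10.11 on Bmp15-/- and 9.51 to 10.09 on DM arrays. On every mutant array this median was the Foxl2 value itself, so its fall is not separate from that of Foxl2. Of 5 tested mural granulosa markers, Hsd3b1 rose by 0.91 and Kitl fell by 1.31 in DM. In Bmp15-/- limma called 2 of the 5 higher and 1 lower, among them Hsd3b1 at 0.99 and Kitl at -1.54. The median of the 5 was 7.73 to 8.00 on wildtype, 7.52 to 7.77 on Bmp15-/- and 6.79 to 7.65 on DM arrays. Of the endothelial and immune lists 1 and 3 markers were tested, and limma called 0 of them by gene in either mutant. A second probe set of the endothelial marker, Cdh5, fell by 0.74 in DM (adjusted p = 0.00161) and differed by -0.26 in Bmp15-/- (adjusted p = 0.161). The 1 tested erythroid marker, Alas2, fell in both mutants, and 2 of 5 surface epithelium markers rose in DM, 1 in Bmp15-/-. Targeted Bmp15, an oocyte transcript, read 5.10 on wildtype array 1 and 9.58 and 8.41 on arrays 2 and 3, against 5.05 to 5.10 on mutant arrays, so wildtype array 1 stood at the mutant level there. Another Bmp15 probe set ran from 3.91 to 4.22 on all arrays, and whether any lies in the deleted part is not known here. The 3' minus 5' difference of the Gapdh control was 0.52 to 0.59 on wildtype, 0.66 to 0.73 on Bmp15-/- and 0.79 to 0.95 on DM arrays. That of the actin control overlapped, at 1.87 to 1.90, 1.85 to 1.92 and 1.85 to 2.12. The part of stromal cells, of the mix of granulosa cells and of RNA quality in the changes of Bmp2, Amhr2, Inhba, Inhbb and Grem1 was not tested.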

How the data were processed

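Cumulus cell RNA of 9 samples, 3 per genotype, was hybridised to Affymetrix arrays after 10 ng of total RNA had gone through 2 rounds of amplification, per the labels' protocols. The authors deposited log2 expression values per probe set; the tools, per the submitters' processing notes, were RMA and affy, with versions not given in the sources used here. Probe sets were named from the platform annotation, with symbols updated through RefSeq gene identifiers. Each gene was represented by its probe set of highest mean, and genes with at least 3 of 9 arrays above the 40th percentile of their array were tested (13447 of 18194). All 9 arrays entered 1 limma 3.58.1 fit (R 4.3.3, data.table package 1.17.8) with genotype as the only term and 6 residual degrees of freedom; p-values are 2-sided and Benjamini-Hochberg adjusted over all genes, or over all 27991 probe sets tested in a fit by probe set. Figures used matplotlib 3.10.9. Samples were separate pools of mice.

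The genes, lists and tests were chosen with earlier results of these data known. Named are all 10 genes, up to 5 genes per list called in a mutant against wildtype (by p in DM), and the 3 nearest patterns per called gene. The fit was tested on simulated data with independent normal noise and far fewer changed genes than were called here in DM. That simulation checks the code only and gives no support to the calls. Alternatives were the dim filter, the probe set per gene, normalization, a floor, array weights, a trended and robust fit, fits of 2 groups, the replicate block, and the removal of each array or of the 2 arrays rich in oocyte transcripts. Scanner files were not used here, so background correction could not be varied, and the number of arrays limits the precision.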

Additional observations from a re-analysis of the deposited data

How the results depend on the processing

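In DM against wildtype, the calls of Bmp2, Amhr2 and Inhbb held under all 21 alternatives, that of Inhba under 19 and that of Grem1 under 11. For Amhr2 this does not address cross-hybridisation, since no alternative used only 1427989_at, its probe set without the x_at mark. That probe set was not called in DM against wildtype under any setting. Of the 10 genes, 3 were called without the 2 arrays rich in oocyte transcripts, where 2191 of all 13334 genes tested were called. When 1 array was removed, 3 to 5 were called by gene and 7 to 11 by probe set, where 2630 to 4147 of all genes were called. With the mean of all probe sets or the probe set of largest variance, 7 genes were called, Fst and Tgfb2 being added. Over all genes, 3731 of 12599 and 4026 of 12430 were called in these 2 settings. The mean gave Inhbb a fall of 1.43 and Inhba a fall of 0.56. In Bmp15-/- against wildtype, 1 gene (Bmp2) was called with the 60th percentile filter, the mean of probe sets, the probe set of largest variance, array weights, the trended fit and the 2 groups alone, and 0 to 1 by gene and by probe set when an array was removed. By probe set 2 were called with array weights and 1 with the 2 groups alone. Over all genes, 1212 to 2350 were called in the settings named and 444 to 1653 when an array was removed. In DM against Bmp15-/-, 2 genes were called with the 60th percentile filter, the mean of probe sets, quantile normalization, array weights and the trended fit, 3 with the probe set of largest variance, 0 with the 2 groups alone, the replicate block or without the 2 oocyte-rich arrays, and 0 to 3 when an array was removed. By probe set there were 2 with the 60th percentile filter, 4 with array weights, 5 with the trended fit, 0 with the 2 groups alone or without the oocyte-rich arrays, and 0 to 4 when an array was removed. Over all genes, 415 to 607 were called in the settings that called 2 or 3 of the 10 genes. The count was 117 with the 2 groups alone, 360 with the replicate block and 11 without the oocyte-rich arrays, and 108 to 924 when an array was removed. Genes with differences near 0 changed sign: Fst in Bmp15-/- was -0.07 with the mean of probe sets, -0.15 with the largest variance, -0.02 with quantile normalization and -0.00 with array weights, and Fstl3 between the mutants was -0.01 without the oocyte-rich arrays. With 1 array removed in turn, the difference in Bmp15-/- ran from -0.02 to 0.00 for Inha, -0.02 to 0.03 for Fst, -0.09 to 0.43 for Tgfb2 and -0.04 to 0.18 for Fstl3; that of Amh in DM ran from -0.17 to 0.01, and between the mutants Amh ran from -0.00 to 0.23 and Fstl3 from -0.02 to 0.21. None of these passed, and where the fit did not itself change the samples or genes tested, the cause was not tested.

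Deviations from the group means correlated at -0.08 to 0.26 over 9 pairs of same-numbered arrays. Differently numbered arrays of different genotypes ran from -0.20 to 0.17. With 3 arrays per genotype these values cannot settle whether same-numbered arrays are paired. With the replicate block, 4 genes were called in DM against wildtype, Grem1 being lost (adjusted p = 0.0509), and Bmp2 had adjusted p = 0.0778 in DM against Bmp15-/-; by gene it changed no other call. Over all genes, quantile normalization moved the share of calls that were lower from 63.7% to 47.0% in Bmp15-/- and from 64.6% to 51.6% in DM. The count of all genes called ran from 149 to 2350 in Bmp15-/-, from 2191 to 4208 in DM and from 11 to 924 between the mutants, against 1219, 3780 and 437. The count for Bmp15-/- was 563, 454 and 525 without wildtype arrays 1 to 3.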
